A study of Zea mays with 6 samples.

Results

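The maize genes ccp1, ccp2, mir2 and mir3 encode cysteine proteases of the papain family. On the array used here they are read by 7 of the 17621 probe sets that are not the manufacturer's controls, and these probe sets were found by gene symbol or synonym in the platform annotation, by a rule that reads no signal, although the genes had been proposed with earlier results of these data known. They are 4 of the 1108 genes that the annotation names. The gene ccp1 has 1 probe set, ccp2 has 2, mir2 has 1 and mir3 has 3.

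RNA came from the mesocotyl, the stem segment below the coleoptile that lifts the shoot of a grass seedling through the soil. All plants were of Maize inbred line 3681-4, sown at a depth of 20 cm, kept in darkness and taken at day 10 after sowing. One group received the gibberellin GA3, one received UCZ, described in the series as blocking GA biosynthesis, and the control group received neither as far as the labels say. Each group had 2 arrays, labelled as biological replicates 1 and 2, so that 6 Affymetrix arrays in all limit the precision of every value. Dose, length of treatment and plants per extract are not stated in the labels.

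Papain-type proteases are made as inactive precursors with an inhibitory propeptide and cut proteins with a cysteine in the active site. In plants they work mainly in the vacuole, in related compartments and in the cell wall, where they break down proteins in germinating seeds, senescing leaves and dying cells, and several take part in defence. Cystatins are small proteins that block their active site, and legumains, a separate family of cysteine proteases, cut after asparagine and process other vacuolar proteins. In cereal seeds gibberellin is known to induce cysteine proteases that digest storage proteins in the endosperm, and the comparison here asks how these genes read when gibberellin is added to, or its synthesis blocked in, an elongating dark-grown stem.

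The genes mir1, mir2 and mir3 were isolated as cysteine protease clones from maize callus, and the mir1 protein is known from maize that resists leaf-feeding caterpillars. The gene ccp2 carries the synonym see1, a name given to a protease gene whose transcript increases in senescing maize leaves. In the RefSeq gene table (assembly Zm-B73-REFERENCE-NAM-5.0) the 4 genes lie on 4 different chromosomes, and mir1 is the next listed gene after mir2.

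The clearest difference among these genes was in mir2, which was 1.90-fold higher in GA3 than in UCZ mesocotyls, with the control between the groups. For mir3, 2 of 3 probe sets read higher on both GA3 arrays than on all other arrays, by amounts that did not pass the test, and UCZ and control overlapped. The ccp1 and ccp2 probe sets differed by at most 1.15-fold between group means, and none of their differences passed the test. Of the members' results, only mir2 in GA3 against UCZ passed the test, and with the replicate block mir2 and mir3 passed in further comparisons.

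The deposited signals had been scaled so that the trimmed mean of every array was 500.1 to 500.2. The median signal was 196 to 201 in GA3, 183 to 189 in UCZ and 199.6 to 203 in control. The 12 poly-A control probe sets, which read bacterial transcripts that are added to the RNA, differed between groups. Their mean log2 signal was 8.35 and 7.82 in GA3, 8.99 and 8.72 in UCZ, and 8.37 and 8.06 in control. Setting them level (poly-A control scaling) moved the median log2 difference of all probe sets to 0.15 for GA3 against control, −0.67 for UCZ against control and 0.81 for GA3 against UCZ. It adds 1 constant to every log2 difference of a comparison, since the control probe sets themselves differed by −0.13 for GA3 against control, 0.64 for UCZ against control and −0.77 for GA3 against UCZ, and a gene's change on that scale is read against these medians. All other differences given here are on the scale of the deposited signals unless stated.

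As a check on RNA integrity, actin probe sets at the 3′ end of the transcript were set against those at the 5′ end. Their ratio was 4.64 and 3.40 in GA3, 4.14 and 3.11 in UCZ, and 3.57 and 2.76 in control (replicates 1 and 2). In both replicates it was highest in GA3 and lowest in control, and replicate 1 was above replicate 2 in every group. Leaf photosynthesis markers (18 probe sets) summed to 56510 to 59480 in GA3, 74710 to 77530 in UCZ and 76020 to 80270 in control. Of the 16 that passed the filter, 3 were lower in GA3 than in control, 1 was higher and 1 lower in UCZ than in control, and 7 were lower in GA3 than in UCZ, by −0.42 to −0.71 on the log2 scale, which is above 0 with poly-A control scaling. With the replicate number as a block, 11 were lower in GA3 than in control, 2 were higher and 4 lower in UCZ than in control, and 11 were lower in GA3 than in UCZ. Kernel markers (22 probe sets) summed to 356 to 367 in GA3, 570 to 609 in UCZ and 316 to 374 in control. Only 2 of them passed the filter, and the mean was higher in UCZ than in control for 11 of the 22 and lower for 11. Most of the higher UCZ sum was betl4, with 79.4 and 88.8 in GA3, 293 and 265 in UCZ, and 90.9 and 59.6 in control. Sums of 2 root probe sets were 704 to 823 in GA3, 794 to 822 in UCZ and 919 to 931 in control, and sums of 4 reproductive probe sets were 788 to 906 in GA3, 1224 to 1233 in UCZ and 1175 to 1215 in control. The reproductive markers did not move together: in GA3 against UCZ, M2 was higher by 1.23 (limma adjusted p = 0.00539) and m21 lower by a log2 difference of −1.08 (limma adjusted p = 0.00467). No list of markers that define the mesocotyl was used, so the tissue label was not checked in that way. The part of RNA integrity, spiked controls or other tissues in the protease differences was not tested.

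The mir2 probe set (Zm.7736.1.S1_at) had a signal intensity of 1617 and 1585 in GA3, 869 and 805 in UCZ, and 1007 and 1148 in control mesocotyls (replicates 1 and 2). Both GA3 arrays were above both control arrays, and both UCZ arrays were below them, so no pair of groups overlapped. The means were 1601 ± 22.4 in GA3, 837 ± 45.3 in UCZ and 1077 ± 99.7 in control (SD, n = 2 each). Between GA3 and UCZ the log2 difference was 0.92 with a standard error of 0.125 and a 95% interval of 0.63 to 1.21, on the scale of log2(signal + 16). It passed limma's moderated test with Benjamini-Hochberg adjustment over 10573 probe sets (adjusted p = 0.00467) and ranked 234 of them by p. The difference was 0.88 between the arrays of replicate 1 and 0.96 between those of replicate 2.

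The differences from control were smaller. In GA3 against control, mir2 was 1.48-fold higher (log2 difference 0.57, standard error 0.125, limma adjusted p = 0.0924), and in UCZ against control it differed by −0.36 on the log2 scale (limma adjusted p = 0.0959), a 1.28-fold difference. Neither passed the test. With the replicate number as a block, which removes what same-numbered arrays share, the limma adjusted p was 0.00544 for GA3 against control, 0.025 for UCZ against control and 3.49e-05 for GA3 against UCZ, so that mir2 then passed in all 3 comparisons. These comparisons share arrays and are not independent of each other. In whole mesocotyls, fewer cells of a type and less RNA per cell cannot be told apart.

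**Figure D1:**
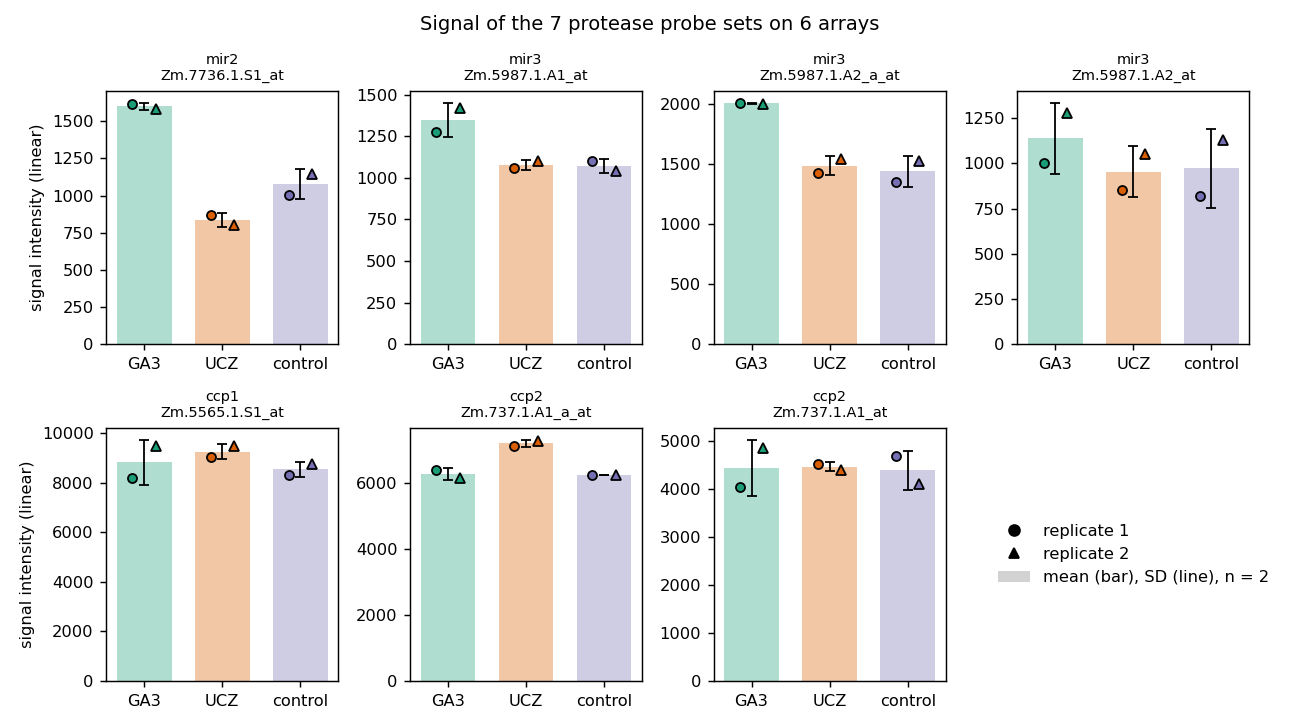
Signal intensity, as deposited, of the 7 probe sets of mir2, mir3, ccp1 and ccp2 on each array, by group; points are arrays, bars are means and lines are SD (n = 2). The mir2 panel shows no overlap between groups, with GA3 at 1585 and 1617, UCZ at 805 and 869, and control at 1007 and 1148; levels of different panels are of different probe sets and are not comparable.

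The 3 probe sets of mir3 carry the same array cluster number, and 2 of them bear a gene identifier that the RefSeq table does not list, so they may read different transcripts, which was not tested. The probe set Zm.5987.1.A2_a_at had 2008 and 2004 in GA3, 1430 and 1544 in UCZ, and 1350 and 1528 in control mesocotyls. Both GA3 arrays stood above all others, and the UCZ and control arrays overlapped. The log2 difference was 0.48 (standard error 0.119) for GA3 against control, a 1.39-fold difference with limma adjusted p = 0.133, and 0.43 for GA3 against UCZ, a 1.35-fold difference with limma adjusted p = 0.0535. With the replicate block the limma adjusted p was 0.00923 and 0.00604.

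The mir3 probe set Zm.5987.1.A1_at had 1278 and 1420 in GA3, 1058 and 1100 in UCZ, and 1103 and 1041 in control mesocotyls. The GA3 arrays again lay above all the others. The log2 difference was 0.33 for GA3 against control (1.25-fold, limma adjusted p = 0.329; 0.0887 with the block) and 0.32 for GA3 against UCZ (1.24-fold, limma adjusted p = 0.129; 0.0404 with the block). The third, Zm.5987.1.A2_at, had 1000 and 1276 in GA3, 853 and 1054 in UCZ, and 817 and 1127 in control mesocotyls, so that all groups overlapped and replicate 2 was higher than replicate 1 in each. Its log2 difference was 0.23 for GA3 against control, with a 95% interval of −0.24 to 0.70, and 0.25 for GA3 against UCZ, with an interval of −0.22 to 0.72.

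For UCZ against control the mir3 probe sets differed by −0.02 to 0.05 on the log2 scale. The intervals of these differences ran from −0.23 to 0.33 for Zm.5987.1.A2_a_at, from −0.27 to 0.29 for Zm.5987.1.A1_at and from −0.49 to 0.45 for Zm.5987.1.A2_at, which leaves room for a difference of either sign. UCZ and control have no order for mir3 beyond their spread, and with poly-A control scaling these 3 differences lay below 0. For mir2 the UCZ arrays were the lower ones on both scales. Whether the genes differ in this was not tested.

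The ccp1 probe set (Zm.5565.1.S1_at) had 8173 and 9466 in GA3, 9033 and 9477 in UCZ, and 8314 and 8757 in control mesocotyls. GA3 spanned almost the whole range of the 6 arrays, and UCZ lay just above control. The fold of GA3 over control had a 95% interval of 0.876 to 1.21 (limma adjusted p = 0.935). The log2 difference was 0.12 for UCZ against control (limma adjusted p = 0.469) and −0.07 for GA3 against UCZ (limma adjusted p = 0.676); the difference of GA3 against UCZ was 0.08 after quantile normalization. With poly-A control scaling these differences were −0.52 for UCZ against control and 0.70 for GA3 against UCZ.

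The ccp2 probe set Zm.737.1.A1_a_at had 6400 and 6134 in GA3, 7127 and 7278 in UCZ, and 6238 and 6249 in control mesocotyls. Both UCZ arrays were above the other 4, which overlapped. The fold of UCZ over control was 1.15 (log2 difference 0.21, standard error 0.0868, limma adjusted p = 0.152), and the log2 difference of GA3 against UCZ was −0.20 (limma adjusted p = 0.174). Its second probe set, Zm.737.1.A1_at, had 4030 and 4853 in GA3, 4524 and 4399 in UCZ, and 4676 and 4090 in control mesocotyls, with all groups overlapping and log2 differences of −0.01 to 0.03. Across the 6 arrays the correlation between the ccp2 probe sets was −0.0595, and the UCZ difference was seen in the first of them. With poly-A control scaling Zm.737.1.A1_a_at differed by −0.44 for UCZ against control and 0.57 for GA3 against UCZ.

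Counted over the 7 probe sets, 0 passed limma's test in GA3 against control, where 1.32% of all probe sets tested passed. At an unadjusted p under 0.05 there were 3 of 7, beside 12.1% of all. These were mir2 and 2 probe sets of mir3, the same as in GA3 against UCZ below. The 7 probe sets read 4 genes, and 3 of them read mir3. Probe sets of 1 gene are not independent, so these counts and the medians are not counts or medians of genes. In UCZ against control 0 of 7 passed, beside 15.4% of all, with 2 of 7 at an unadjusted p under 0.05, beside 31.8% of all. In GA3 against UCZ 1 of 7 passed, higher in GA3, beside 13.9% of all, with 3 of 7 at an unadjusted p under 0.05, beside 29.3% of all. With the replicate block 2 passed in GA3 against control, beside 8.19% of all, 1 passed in UCZ against control, lower in UCZ, beside 34.6% of all, and 3 passed in GA3 against UCZ, beside 30.9% of all.

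No overlap between groups was seen for 3 of the 7 in GA3 against control, beside 40.1% of all, for 3 of 7 in UCZ against control, beside 61.1%, and for 4 of 7 in GA3 against UCZ, beside 57.5%. The members' counts of no overlap lie close to or below these shares. The median log2 difference of the 7 was 0.23 for GA3 against control, beside 0.02 over all probe sets tested. It was 0.03 for UCZ against control, beside −0.03, and 0.25 for GA3 against UCZ, beside 0.04.

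**Figure D2:**
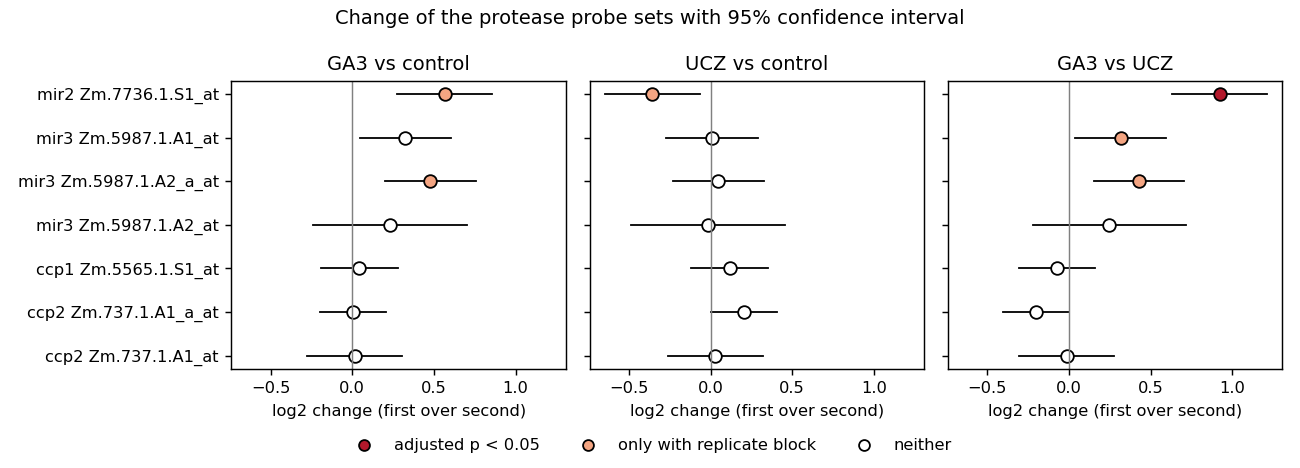
Log2 difference of each member probe set in the 3 comparisons, with 95% intervals from the limma fit; the fill tells whether the test was passed, passed with the replicate block alone, or neither. The interval of mir2 in GA3 against UCZ, 0.63 to 1.21, lies farthest from 0, while the intervals of ccp1 and of ccp2 Zm.737.1.A1_at include 0 in every comparison.

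Values of each gene's brightest probe set were correlated over the 6 arrays with 844 probe sets of named genes, as a description of arrays that share treatments and replicate numbers. The pattern most like mir2 was that of gst11, a glutathione S-transferase gene (r = 0.984), followed by nrx1, a nucleoredoxin gene, and expB6, a beta-expansin gene (r = 0.981 for each). gst11 had 641 and 733 in GA3, 257 and 256 in UCZ, and 383 and 443 in control mesocotyls, which is the order seen for mir2. For mir3 the nearest were IPP (r = 0.978), piip1 and the cystatin gene cpi2 (r = 0.955 for each).

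The probe sets nearest to ccp1 were those of spp1 (r = 0.94), plt2, a lipid transfer protein gene (r = 0.939), and RPL10, a ribosomal protein gene (r = 0.918). All 4 of these genes, ccp1 included, read lowest in GA3 replicate 1. The ccp2 probe set Zm.737.1.A1_a_at was nearest to L29, a ribosomal protein gene (r = 0.992), fer2, a ferritin gene (r = 0.986), and arpp2a-3, an acidic ribosomal protein gene (r = 0.982). L29 had 3933 and 3536 in GA3, 5524 and 5521 in UCZ, and 3818 and 3645 in control mesocotyls. Among the members, mir2 correlated with the mir3 probe sets Zm.5987.1.A2_a_at at 0.861, Zm.5987.1.A1_at at 0.818 and Zm.5987.1.A2_at at 0.525. Its correlation was −0.756 with ccp2 Zm.737.1.A1_a_at, but −0.125 with the other ccp2 probe set, Zm.737.1.A1_at, and −0.29 with ccp1.

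**Figure D3:**
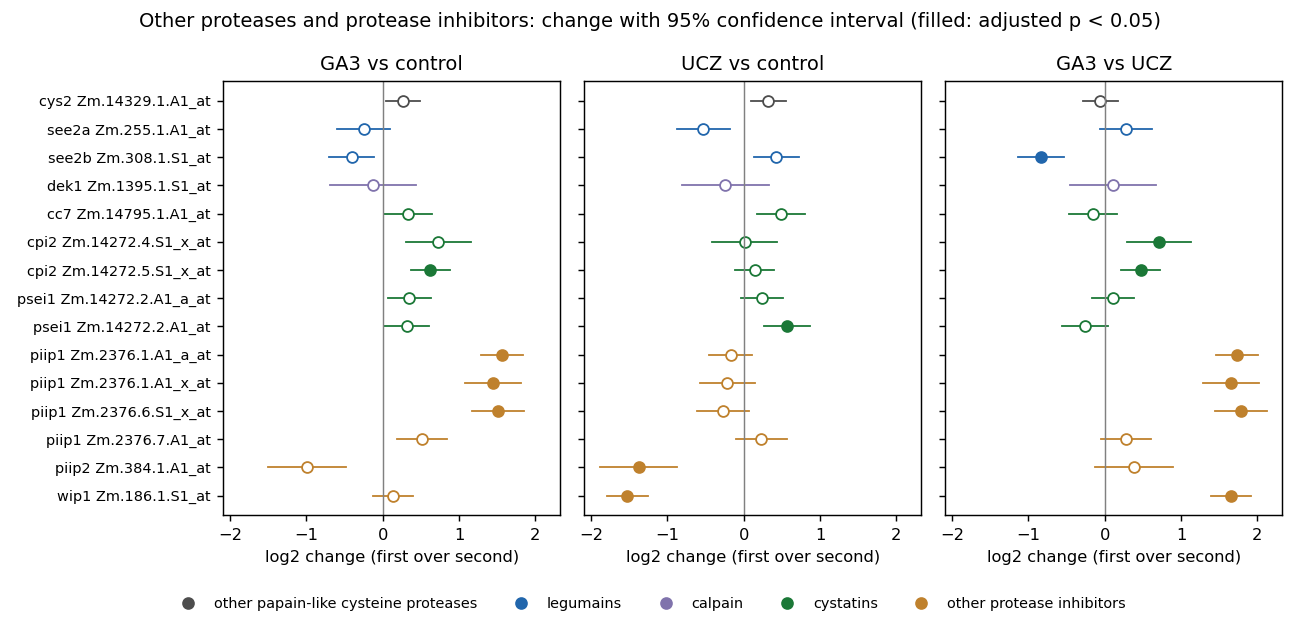
Log2 change (horizontal axis) of probe sets of cys2, legumains, a calpain, cystatins and other protease inhibitors in the 3 comparisons, with 95% intervals. Filled points passed the test. The gene cys2 is labelled there as other papain-like cysteine proteases, though its names do not show that it encodes a protease. In GA3 against UCZ the legumain gene see2b is the filled point below 0, at −0.83 (−0.06 with poly-A control scaling), and mir2, not drawn, was at 0.92.

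Of the other papain-type genes, mir1 was dim and did not pass the filter on low signals, with 29.3 and 16.8 in GA3, 28.8 and 23.3 in UCZ, and 49.3 and 41.2 in control mesocotyls. Both treated groups lay below control, in a range where signals are weak, and the gene has no test here although it is the neighbour of mir2. The gene cys2, with the synonym Mcysp, was put on the same list, but neither name shows that it encodes a protease, and it is not read as one here. It had 6633 and 7159 in GA3, 7165 and 7145 in UCZ, and 5977 and 5443 in control mesocotyls. Both treated groups lay above control, by 0.27 on the log2 scale for GA3 (limma adjusted p = 0.308) and 0.33 for UCZ (limma adjusted p = 0.0594; 0.0156 with the block), and UCZ lay below control with poly-A control scaling.

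The legumain gene see2b had 1265 and 1227 in GA3, 2262 and 2201 in UCZ, and 1507 and 1813 in control mesocotyls. Its order across the groups was the reverse of that of mir2. In GA3 against UCZ it was lower in GA3 by a log2 difference of −0.83 (standard error 0.127, limma adjusted p = 0.00667), while with poly-A control scaling the difference was −0.06 and did not pass. The differences from control, −0.40 for GA3 and 0.43 for UCZ, had limma adjusted p = 0.248 and 0.0596, and 0.0382 and 0.00846 with the block; the UCZ difference was −0.21 with that scaling. The other legumain gene, see2a, had 286 and 335 in GA3, 270 and 235 in UCZ, and 369 and 372 in control mesocotyls, and passed in no comparison without the block (limma adjusted p = 0.595 for GA3 against control, 0.0512 for UCZ against control and 0.255 for GA3 against UCZ). With the block it was lower in UCZ than in control, by a log2 difference of −0.53 (limma adjusted p = 0.00999).

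Cystatin genes, whose products inhibit papain-type proteases, were read by 8 probe sets of 4 genes, of which 5 probe sets of 3 genes passed the filter. The cpi2 probe set Zm.14272.5.S1_x_at had 4422 and 4973 in GA3, 3218 and 3529 in UCZ, and 3010 and 3069 in control mesocotyls, with the GA3 arrays above all others. It was higher in GA3 than in control by a log2 difference of 0.62 (limma adjusted p = 0.0449) and higher than in UCZ by 0.47 (limma adjusted p = 0.0294). Without any 1 of the 6 arrays neither call was kept, with adjusted p = 0.0684 to 0.259 against control and 0.0526 to 0.144 against UCZ. The cpi2 probe set Zm.14272.4.S1_x_at was higher in GA3 than in UCZ by 0.71 (limma adjusted p = 0.0414), a call not kept in 6 of 17 alternatives, with adjusted p = 0.178 without GA3 replicate 1, 0.115 without UCZ replicate 1 and 0.155 without UCZ replicate 2. Its difference of GA3 against control was 0.73 (limma adjusted p = 0.134; 0.00104 with the block). Probe sets with this ending share probes with other transcripts, so related cystatin genes could contribute to these signals, which was not tested.

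The psei1 probe set Zm.14272.2.A1_at had 2114 and 1875 in GA3, 2458 and 2308 in UCZ, and 1726 and 1480 in control mesocotyls. It was higher in UCZ than in control by 0.57 (limma adjusted p = 0.0251), but by −0.07 with poly-A control scaling. Without any 1 of the UCZ and control arrays the call was not kept (adjusted p = 0.0527 to 0.138). The cystatin gene cc7 differed by 0.49 in the same comparison and did not pass (limma adjusted p = 0.0509; 0.00313 with the block), and it too lay below control with poly-A control scaling. The other psei1 probe set, Zm.14272.2.A1_a_at, read highest in GA3, with means of 7600 in GA3, 7029 in UCZ and 5940 in control. For UCZ against control it differed by 0.24 and did not pass (limma adjusted p = 0.21, and 0.0967 with the block).

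Over the list of papain-type genes, legumains, the calpain gene dek1 and cystatins beside the members, 9 of 13 probe sets passed the filter. These 9 include cys2, whose names do not show that it encodes a protease. In GA3 against control 1 was higher and 0 were lower, beside 1.32% of all probe sets tested that passed. In UCZ against control 1 was higher and 0 were lower, beside 15.4%. In GA3 against UCZ 2 were higher and 1 was lower, beside 13.9%. With the replicate block, 2 were higher and 1 lower in GA3 against control, beside 8.19% of all. The block gave 4 higher, cys2 among them, and 1 lower in UCZ against control, beside 34.6%. For GA3 against UCZ it gave 2 higher and 1 lower, beside 30.9%. Their median log2 differences were 0.31, 0.24 and 0.11, beside 0.02, −0.03 and 0.04 over all probe sets tested. The list was chosen with earlier results of these data known.

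Among genes listed here as other protease inhibitors, 3 probe sets of piip1 were higher in GA3 than in both other groups. The log2 differences were 1.44 to 1.56 against control (limma adjusted p = 0.00163 to 0.00561) and 1.65 to 1.79 against UCZ (limma adjusted p = 0.000516 to 0.00149). Some of these have the same name ending as the cpi2 probe sets, so other transcripts could contribute, which was not tested. Another tested piip1 probe set did not pass in GA3 against control (0.51, limma adjusted p = 0.177, and 0.0253 with the block). Nor did it in GA3 against UCZ (0.28, limma adjusted p = 0.24). The remaining piip1 probe sets were dim and did not pass the filter. Their means were 78.7 and 61.7 in UCZ, 43.9 and 40.1 in GA3, and 24.1 and 33.2 in control. wip1, a wound-induced Bowman-Birk type inhibitor gene, had 4684 and 4490 in GA3, 1493 and 1393 in UCZ, and 4456 and 3897 in control mesocotyls. It fell by 1.52 on the log2 scale in UCZ against control (limma adjusted p = 0.000437) and was higher in GA3 than in UCZ by 1.66 (limma adjusted p = 0.000514). The gene piip2 was lower in UCZ than in control by a log2 difference of −1.38 (limma adjusted p = 0.00751; 0.052 without control replicate 2), as was the Lon protease gene lon1 by −0.58 (limma adjusted p = 0.0489, not kept in 8 of 17 alternatives, with adjusted p = 0.0912 to 0.216 without any 1 of the UCZ and control arrays). For GA3 against control the difference of piip2 was −0.99, with no overlap between the groups (limma adjusted p = 0.092; 0.000469 with the block). None of the 5 tested probe sets of the ubiquitin conjugation gene ubc7 and the SUMO gene sum1 passed in any comparison in limma's test without the block.

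**Figure D4:**
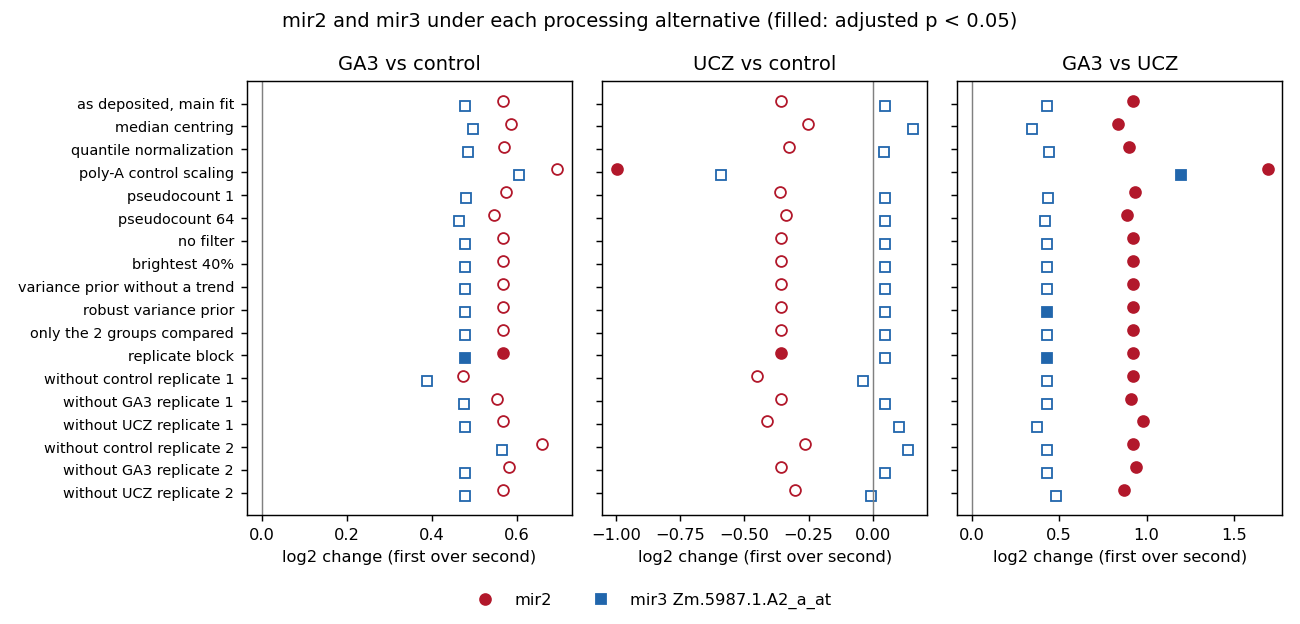
Log2 change (horizontal axis) of mir2 and of mir3 Zm.5987.1.A2_a_at in the 3 comparisons, for the deposited scale and each of 17 alternatives down the page; filled points passed the test. In GA3 against UCZ the mir2 point is filled in every line and lies between 0.84 and 1.69, the highest being that of poly-A control scaling.

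In all 17 alternatives mir2 passed in GA3 against UCZ, with limma adjusted p from 2.83e-05 to 0.0317; leaving out single arrays gave 0.00841 to 0.0317. Without poly-A control scaling its log2 difference lay between 0.84 and 0.98. The mir3 probe set Zm.5987.1.A2_a_at kept the same sign in all 17 alternatives for both GA3 comparisons, and passed in 1 of them against control and in 3 against UCZ.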

How the data were processed

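The authors deposited signal intensities on a linear scale, with 1 value for each probe set on each array. They were made with GCOS and MAS5, per the submitters' processing notes, and no versions or settings of these are stated there. The trimmed mean, leaving out 2% of probe sets at each end, was nearly equal on all arrays, so a common scaling had been applied.

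Tests left out the 113 control probe sets. Names come from the platform annotation, in which 1452 probe sets have a single gene, 1 has several and 16168 have none. RefSeq held 1060 of the 1108 genes and served for names and neighbours. Signals were transformed here to log2(signal + 16), and a filter kept the brightest 60% by mean (10573, with a lowest mean of 6.96), which include all 7 member probe sets. Group means were fitted over all 6 arrays by limma 3.58.1 (R 4.3.3), using lmFit and eBayes with a trend, with 3 residual and 4.52 prior degrees of freedom. Tests were two-sided at a Benjamini-Hochberg threshold of 0.05 over the 10573 probe sets. The steps were tested on simulated data. Figures were drawn with matplotlib 3.10.9.

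Every member probe set is named. So are the called cysteine proteases, legumains and cystatins, up to 3 probe sets of smallest p in each other list, and for each member gene the 3 named genes of highest correlation. The genes see2a, cys2, cc7 and mir1, and the markers betl4, M2 and m21, were picked for naming with their values in view. The member genes and the lists were chosen with earlier results of these data known. Only the labels' wording says that replicates are biological, and p-values measure the spread between these arrays.

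Replicate numbers were taken to pair arrays in the fit with the replicate block, because the design text speaks of independent experiments. The main fit left this pairing out, so its tests count what same-numbered arrays share as spread. Deviations from group means correlated over probe sets at 0.664 (GA3 with control), 0.724 (UCZ with control) and 0.755 (GA3 with UCZ). The fit with that block had 2 residual and 11.7 prior degrees of freedom. The 17 alternatives varied scaling, added constant, filter, variance prior, groups fitted, block and the array left out.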

Additional observations from a re-analysis of the deposited data

How the results depend on the processing

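The mir2 call in GA3 against UCZ was kept in all 17 alternatives. Counts of all probe sets called moved by over 1.5 times as follows. With the replicate block they were 866 for GA3 against control, 3662 for UCZ against control and 3271 for GA3 against UCZ, in place of 140, 1629 and 1474. With poly-A control scaling they were 78, 4286 and 6657, and with the brightest 40% 78 for GA3 against control. Leaving out each array in turn gave 47 to 125, 558 to 1553 and 547 to 1181, and not all of these counts moved by over 1.5 times. Of the 7 protease probe sets, the replicate block called 2, 1 and 3 and changed no other member's call. Poly-A control scaling called 1 for UCZ against control and 4 for GA3 against UCZ, beside the 4286 and 6657 of all 10573. The robust variance prior called 2 for GA3 against UCZ, where the count of all probe sets moved by no more than 1.5 times.

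Signs turned in 29 results for single probe sets under an alternative. For UCZ against control, poly-A control scaling gave −0.52 for ccp1, −0.63 for mir3 Zm.5987.1.A1_at, −0.59 for Zm.5987.1.A2_a_at, −0.44 for ccp2 Zm.737.1.A1_a_at, −0.61 for Zm.737.1.A1_at, −0.070 for psei1 and −0.21 for see2b. For GA3 against UCZ it gave 0.70 for ccp1, 0.57 for ccp2 Zm.737.1.A1_a_at and 0.76 for Zm.737.1.A1_at. For mir3 Zm.5987.1.A2_at in UCZ against control median centring gave 0.089 and quantile normalization 0.0095. Quantile normalization gave −0.091 for ccp2 Zm.737.1.A1_at in that comparison, and 0.080 for ccp1 and 0.11 for Zm.737.1.A1_at in GA3 against UCZ. Poly-A control scaling shifts all probe sets by construction; of the other changes the cause was not tested.

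Leaving out each array in turn, GA3 against control ran from −0.062 to 0.15 for ccp1, −0.025 to 0.036 for ccp2 Zm.737.1.A1_a_at and −0.12 to 0.15 for Zm.737.1.A1_at. UCZ against control ran from −0.031 to 0.050 for mir3 Zm.5987.1.A1_at, −0.040 to 0.14 for Zm.5987.1.A2_a_at, −0.25 to 0.21 for Zm.5987.1.A2_at and −0.068 to 0.12 for ccp2 Zm.737.1.A1_at. GA3 against UCZ ran from −0.18 to 0.033 for ccp1 and −0.15 to 0.12 for ccp2 Zm.737.1.A1_at. None of these probe sets was called in its comparison without the block or poly-A control scaling. The ccp2 probe set Zm.737.1.A1_a_at did not overlap between UCZ and control, and its difference missed the threshold after adjustment (limma adjusted p = 0.152).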

Other observations

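The names of 3 more probe sets begin with the same first number as a member's name but have no gene in the annotation, and they were therefore left out of the counts. The one next to ccp1 in number (Zm.5565.1.S2_at) had 1656 and 2008 in GA3, 1490 and 1502 in UCZ, and 2121 and 1937 in control mesocotyls. Both UCZ arrays were below both control arrays, with a log2 difference of −0.43 (standard error 0.131, limma adjusted p = 0.0634; 0.00926 with the replicate block). The ccp1 probe set itself differed by 0.12 in that comparison. The probe sets that share the first number with mir3 (Zm.5987.2.A1_at) and ccp2 (Zm.737.2.A1_at) had means of 233 ± 25.9 and 137 ± 1.47 in GA3, 238 ± 5.63 and 149 ± 32.3 in UCZ, and 223 ± 17.7 and 154 ± 56.4 in control (SD, n = 2), and all groups overlapped.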
